A study of Mus musculus with 9 samples.

Results

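Genes of the hypoxia response and of glycolysis were followed in TAMH cells, a hepatocyte line derived from a mouse that carries a transforming growth factor alpha transgene, exposed to a bipyridylium herbicide, diquat or paraquat. The set was chosen by gene symbol, with earlier results of these data known. Its shares are therefore set beside those of all genes as a description and not as an independent test. In all, 33 genes were named, and 28 of them had an array feature annotated with that symbol alone, out of 22180 genes measured in this way. Bnip3l, Ankrd37 and Aldoa appeared only on features annotated with several genes, no feature was annotated with the symbols Eno1 or Gpi1, and these 5 genes were not analysed here. The arrays were Affymetrix Mouse Gene 2.1 ST, and 3 were run for each of 3 groups: cells in medium alone, cells in medium with diquat at 18 µM and cells in medium with paraquat at 126 µM, each for 9 h. All groups shared a DMEM/F-12 medium with dexamethasone, nicotinamide, gentamicin, insulin, transferrin and selenium. TAMH is a single transformed line, and the labels do not say whether the 3 dishes of a treatment were separate cultures. The p-values therefore reflect only how far these arrays varied within a group, and that variation may be technical.

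In cells with enough oxygen, the prolyl hydroxylases encoded by the Egln genes mark the alpha subunits of hypoxia-inducible factor (HIF), encoded by Hif1a and Epas1, for destruction. When oxygen falls, the subunits persist and bind DNA at the core sequence ACGTG or GCGTG, raising genes for blood vessel growth, for glycolysis and for lowering mitochondrial oxygen use. Because HIF is controlled mainly at the level of protein, the messenger RNA of its subunits is not a measure of its activity. Diquat and paraquat are bipyridylium salts that take electrons from cellular reductases and pass them to oxygen, which consumes oxygen and forms superoxide.

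Of the 28 measured genes, 25 had a promoter in the RefSeq-based table of assembly GRCm38.p6, in 36 windows because some genes have several annotated starts. Within 250 bases before a start, the core ACGTG or GCGTG was present on either strand in 23 of these 25 genes, against 41.5% of all 27025 genes with a promoter. A gene was counted if any of its windows held a core, which favours genes with several starts. Of all windows, 38.6% held a core. The median GC content of the members' windows was 60.2%, against 52.4% over all 32851 windows, and the part of base composition in the motif's share was not tested. The ATF4 composite element TGATGNAA was present in 0 of the 25, against 3.91% of all genes, the NRF2 element TGACNNNGC in 3, against 11.5%, and the E-box CACGTG, which contains the HIF core on both strands, in 4, against 6.86%. A match is a description of letters in the window and does not show that a factor binds there. A core was present in 5 of the 5 members with an entry that rose with either compound and in 18 of the 20 that did not pass. The 5 windows printed here show both kinds: Vegfa, Hk2 and P4ha2 rose with diquat, whereas Bnip3 and Pgk1 did not pass the test. Each sequence is the 250 bases before the outermost annotated start, written 5′ to 3′ on the gene's strand, with HIF cores of either strand in capitals (CACGT and CACGC are the core read from the other strand). Vegfa lies on the minus strand at chr17:46032378-46032627, Hk2 on the minus strand at chr6:82774455-82774704, P4ha2 on the plus strand at chr11:54100674-54100923, Bnip3 on the minus strand at chr7:138909507-138909756 and Pgk1 on the plus strand at chrX:106186850-106187099.
Vegfa: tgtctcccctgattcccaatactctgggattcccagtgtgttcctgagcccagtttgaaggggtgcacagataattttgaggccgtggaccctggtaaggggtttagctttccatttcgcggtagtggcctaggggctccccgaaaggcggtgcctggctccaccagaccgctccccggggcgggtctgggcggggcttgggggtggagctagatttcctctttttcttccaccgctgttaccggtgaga
Hk2: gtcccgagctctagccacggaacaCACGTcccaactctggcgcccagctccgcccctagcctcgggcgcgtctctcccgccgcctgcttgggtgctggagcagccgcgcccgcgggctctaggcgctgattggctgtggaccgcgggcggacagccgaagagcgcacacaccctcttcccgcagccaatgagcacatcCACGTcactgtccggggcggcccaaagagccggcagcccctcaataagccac
P4ha2: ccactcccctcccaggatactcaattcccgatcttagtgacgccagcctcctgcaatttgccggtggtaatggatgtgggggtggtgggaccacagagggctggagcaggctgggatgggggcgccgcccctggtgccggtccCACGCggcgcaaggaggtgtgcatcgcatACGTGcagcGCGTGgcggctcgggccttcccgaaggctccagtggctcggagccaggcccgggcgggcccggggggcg
Bnip3: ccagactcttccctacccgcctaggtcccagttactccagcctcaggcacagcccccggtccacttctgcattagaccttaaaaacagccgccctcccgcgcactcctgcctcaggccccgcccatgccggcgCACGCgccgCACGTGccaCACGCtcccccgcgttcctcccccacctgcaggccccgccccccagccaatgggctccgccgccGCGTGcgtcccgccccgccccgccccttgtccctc
Pgk1: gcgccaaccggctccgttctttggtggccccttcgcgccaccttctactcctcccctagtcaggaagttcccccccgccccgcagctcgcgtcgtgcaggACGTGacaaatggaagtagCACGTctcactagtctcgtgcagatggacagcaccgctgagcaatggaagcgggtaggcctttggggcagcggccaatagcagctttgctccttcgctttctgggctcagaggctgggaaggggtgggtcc

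The Vegfa window holds 0 cores, although a second annotated start inside the gene has 2 in its own window (chr17:46025164-46025413). Hk2 holds 2 cores, P4ha2 holds 3, and Pgk1 holds 2. Bnip3 holds 5, of which 2 are the opposite strands of a single E-box. Among the other genes that rose, 1 core was present before a Kdm3a start, and Ndrg1 had no entry in the table. Before the annotated starts of Pfkfb3 there were 1 and 3 cores, and 2 of those 3 are likewise the opposite strands of a single E-box.

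Values below are the authors' normalized log2 expression values, in which a difference of 1 is a doubling, and levels of different genes are not compared because each feature has its own response. A gene was called higher or lower where limma's p-value, adjusted by Benjamini and Hochberg over all 22180 genes, was under 0.05. With diquat, 6 of the 28 members rose (Vegfa, Ndrg1, Hk2, Pfkfb3, Kdm3a and P4ha2) and 0 fell. Over all genes 4.13% were called higher and 2.89% lower with diquat, 7.02% together. With paraquat, 4 of the 28 rose (Vegfa, Ndrg1, Hk2 and Pfkfb3) and 0 fell, where 2.33% of all genes were called higher and 2.24% lower, 4.57% together. The members' median log2 change was 0.09 with diquat, against -0.02 over all genes, and 0.01 with paraquat, against 0.00. Both comparisons use the same 3 control arrays, so their likeness is not independent evidence. In RNA from a whole dish, a change in the make-up of the cells and a change in RNA per cell cannot be told apart.

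Of the hepatocyte markers, Alb, Ttr, Apoa1, Apob and Hnf4a had mean levels between the percentiles 96.5 and 100 of all genes, and Serpina1a and Cps1 lay at 62.1 and 72.4. The 6 endothelial markers lay between the percentiles 7.09 (Emcn) and 46.3 (Cdh5). Some markers of other cell types were also high, among them Sox9 at 95.7 and Krt7 at 80.6 for cholangiocytes and Col1a1 at 83.5 for stellate cells and fibroblasts. These percentiles place features on the array and are not a measure of relative RNA amounts. The 7 measured hepatocyte markers averaged 10.35 to 10.45 in the control arrays, 10.14 to 10.18 with diquat and 10.13 to 10.25 with paraquat. Of these, 4 fell with diquat and 2 with paraquat, and 0 rose. Of 4 cholangiocyte markers 1 rose and 2 fell with diquat and 1 rose with paraquat, and their average was 8.77 to 8.81 in controls, 8.78 to 8.79 with diquat and 8.83 to 8.84 with paraquat. Of 5 macrophage markers 1 rose with diquat and 0 with paraquat, with averages of 6.19 to 6.27, 6.19 to 6.30 and 6.28 to 6.34. None of the 6 endothelial or the 6 stellate cell and fibroblast markers passed with either compound. The part of cell make-up in the results was not tested. Diquat replicate 3 differed most from its group mates, by a root-mean-square of 0.134 against 0.0714 to 0.115 for the other arrays.

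**Figure D1:**
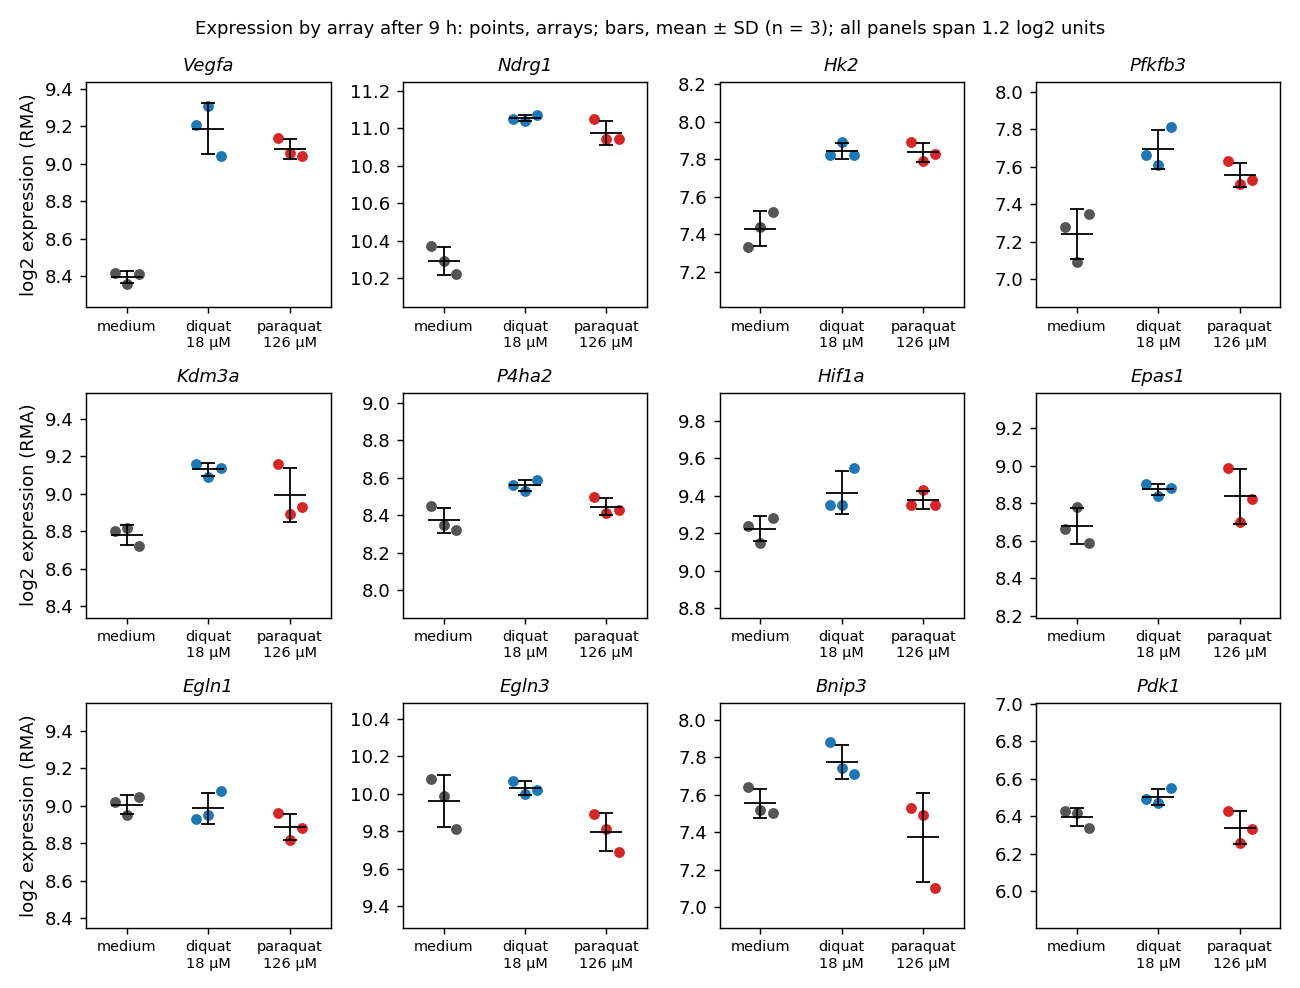
Log2 expression (vertical axis, RMA units) of 12 members in each array after 9 h in medium alone, in 18 µM diquat or in 126 µM paraquat; points are arrays and bars the mean ± SD of 3. Vegfa, Ndrg1, Hk2 and Pfkfb3 lay higher in all treated arrays than in any control array, whereas the Egln1 and Egln3 values of treated and control arrays overlapped.

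The vascular growth factor gene Vegfa stood at 8.42, 8.36 and 8.41 in the control arrays, at 9.21, 9.31 and 9.04 with diquat and at 9.14, 9.06 and 9.04 with paraquat. Every treated array lay above every control array, and the treated groups overlapped each other. The rise was 1.73-fold with diquat (95% interval 1.57 to 1.90, adjusted p = 6.45e-05) and 1.61-fold with paraquat (1.46 to 1.77, adjusted p = 0.00021), and it was called in all 18 alternative settings for each compound. Ndrg1, a stress-induced gene long used as a marker of hypoxia, read 10.37, 10.29 and 10.22 in controls, 11.05, 11.04 and 11.07 with diquat and 11.05, 10.94 and 10.94 with paraquat. Every treated array again lay above every control array, while the treated groups overlapped each other, with a rise of 1.69-fold with diquat (1.57 to 1.82, adjusted p = 1.22e-05) and 1.61-fold with paraquat (1.49 to 1.73, adjusted p = 2.79e-05). A second feature of Ndrg1, with a lower mean of 8.21, also rose, by 0.77 and 0.87 on the log2 scale, against 0.76 and 0.68 for the feature used. The order of the compounds differed between them. Paraquat lay above diquat on the second feature (means of 8.53 and 8.44) and below it on the feature used (10.98 and 11.05).

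Other targets of HIF on the list moved less. Kdm3a, which encodes a histone demethylase that needs oxygen, gave 8.80, 8.82 and 8.72 in controls, 9.16, 9.09 and 9.14 with diquat, and 9.16, 8.89 and 8.93 with paraquat. Both treated groups lay above the controls, with a rise of 1.27-fold with diquat (1.15 to 1.41, adjusted p = 0.0112), while the 1.16-fold difference with paraquat did not pass (1.05 to 1.28, adjusted p = 0.118). P4ha2, a subunit of the enzyme that hydroxylates collagen prolines, read 8.45, 8.35 and 8.32 in controls, 8.56, 8.53 and 8.59 with diquat and 8.50, 8.41 and 8.43 with paraquat. It rose 1.14-fold with diquat (1.06 to 1.22, adjusted p = 0.0317), and the paraquat arrays overlapped the controls (1.05-fold, adjusted p = 0.528). The P4ha2 call was lost without control replicate 2 (adjusted p = 0.12) or 3 (0.11), without diquat replicate 1 (0.0824) or 3 (0.0796) and without paraquat replicate 3 (0.0514), and with the diquat and control arrays fitted alone (0.0687). Its relative P4ha1 had log2 differences of 0.04 with diquat and -0.08 with paraquat and passed with neither.

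Bhlhe40, a transcriptional repressor of the circadian system, lay just outside the threshold with both compounds. It read 11.05, 10.86 and 11.00 in controls, 11.13, 11.16 and 11.22 with diquat and 11.26, 11.14 and 11.14 with paraquat, so that the treated arrays were all above the controls. Its log2 differences were 0.20 ± 0.06 (SE, adjusted p = 0.0623) and 0.21 ± 0.06 (SE, adjusted p = 0.0675). A trend and robust prior gave calls for both (adjusted p = 0.037 and 0.0384), and so did omission of dim genes for diquat (0.0491) and quantile normalization or array weights for paraquat (0.0303 and 0.0479).

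Several textbook targets of HIF did not pass in either comparison. Bnip3, which encodes a mitochondrial protein of cell death and mitophagy, read 7.64, 7.52 and 7.50 in controls, 7.88, 7.74 and 7.71 with diquat and 7.53, 7.49 and 7.10 with paraquat. The diquat arrays lay above the controls and the paraquat arrays overlapped them, with paraquat replicate 3 lowest of all 9 arrays, and the log2 differences were 0.22 ± 0.10 and -0.18 ± 0.10 (SE, adjusted p = 0.238 and 0.487). Pdk1, the kinase that closes the pyruvate dehydrogenase gate into the mitochondrion, read 6.43, 6.42 and 6.34 in controls, 6.49, 6.47 and 6.55 with diquat and 6.43, 6.26 and 6.33 with paraquat. Its diquat arrays stood above the controls by 0.11 ± 0.05 (SE, adjusted p = 0.245), and its paraquat arrays overlapped them (-0.06 ± 0.05 (SE), adjusted p = 0.718). Car9, the tumour-associated carbonic anhydrase, lay low in the range at a mean of 5.66 and differed by 0.06 and 0.01, with 95% intervals of -0.05 to 0.17 and -0.10 to 0.11. The MYC antagonist gene Mxi1 differed by 0.14 and 0.04 and did not pass. A second feature of Mxi1, with a lower mean of 6.27, differed by 0.05 and 0.19. On that feature the paraquat arrays were all above the controls and the diquat arrays overlapped them.

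None of the 4 genes of the HIF system itself passed the test with either compound. Hif1a read 9.24, 9.15 and 9.28 in controls, 9.35, 9.35 and 9.55 with diquat and 9.35, 9.43 and 9.35 with paraquat. All treated arrays were above the controls, but the log2 differences of 0.19 ± 0.06 and 0.15 ± 0.06 (SE) did not pass (adjusted p = 0.0897 and 0.238). A second feature of Hif1a, with a lower mean of 6.35, differed by 0.08 and 0.12, and its treated arrays overlapped the controls. Epas1, which encodes HIF-2 alpha, read 8.66, 8.78 and 8.59 in controls, 8.90, 8.84 and 8.88 with diquat and 8.99, 8.70 and 8.82 with paraquat. Its diquat arrays were above the controls and its paraquat arrays overlapped them, with differences of 0.20 ± 0.07 and 0.16 ± 0.07 (SE, adjusted p = 0.145 and 0.328).

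The hydroxylase genes, which are themselves HIF targets in many cells, passed with neither compound. Egln1 read 9.02, 8.95 and 9.05 in controls, 8.93, 8.95 and 9.08 with diquat and 8.96, 8.82 and 8.88 with paraquat. Egln3 read 10.08, 9.99 and 9.81 in controls, 10.07, 10.00 and 10.02 with diquat and 9.89, 9.81 and 9.69 with paraquat. Treated and control arrays overlapped for both genes. The log2 differences of Egln1 were -0.02 with diquat (95% interval -0.14 to 0.10) and -0.12 with paraquat (-0.24 to 0.00), and those of Egln3 were 0.07 (-0.09 to 0.23) and -0.16 (-0.32 to -0.01), with adjusted p between 0.304 and 0.866.

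**Figure D2:**
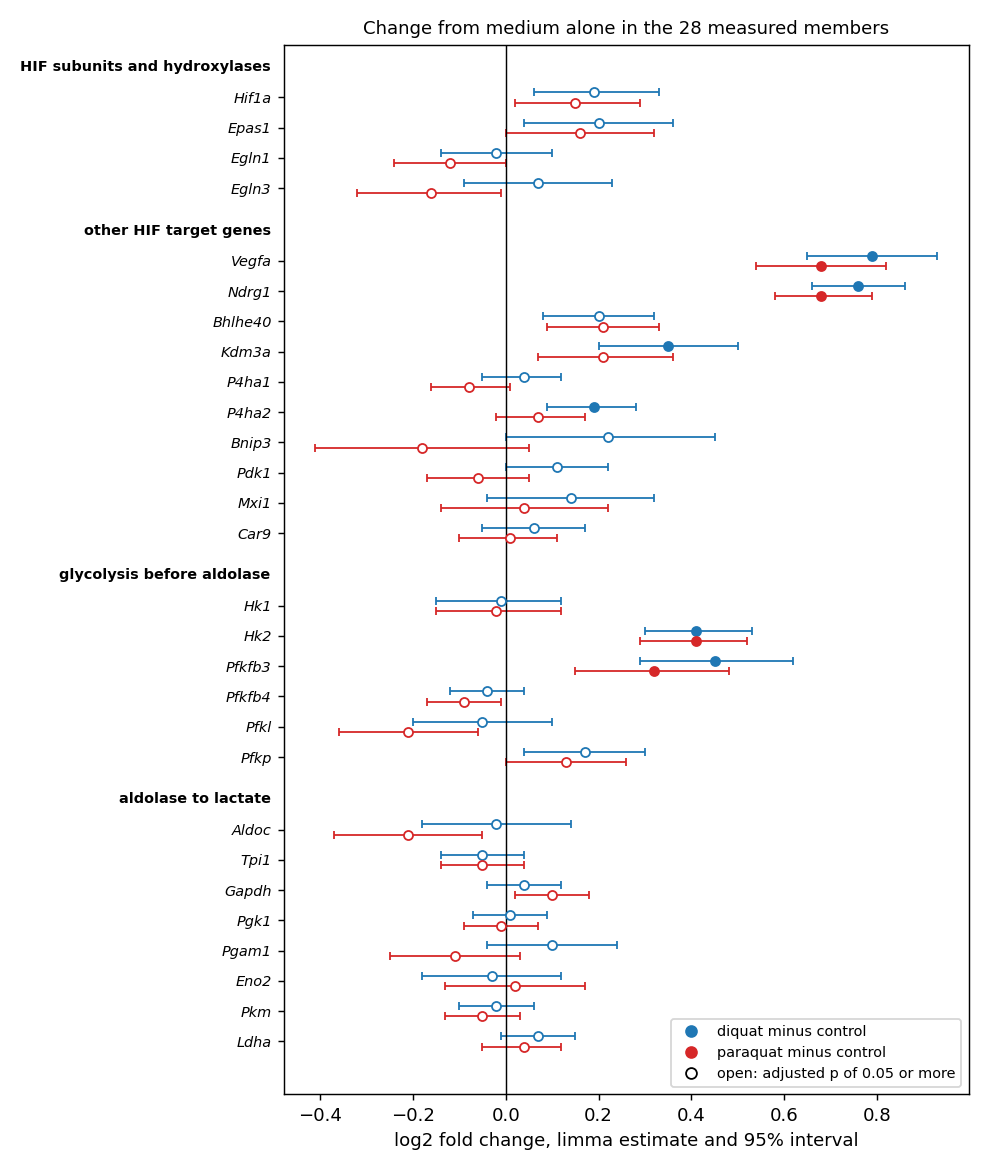
Log2 fold change from control (horizontal axis) of the 28 measured members by role, as limma's estimate and 95% interval for diquat and paraquat; filled points passed an adjusted p of 0.05. Vegfa and Ndrg1 stand apart at 0.68 to 0.79, and Hk2 and Pfkfb3 lie at 0.32 to 0.45. None of the 8 genes from aldolase to lactate passed, where 7.02% of all genes did with diquat and 4.57% with paraquat.

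Glycolysis splits glucose into pyruvate, and its early steps trap glucose and commit it to the pathway. Of 6 members that act before aldolase, 2 rose with each compound, where 4.13% of all genes rose with diquat and 2.33% with paraquat. Hk2, the inducible hexokinase that traps glucose as its phosphate, read 7.33, 7.44 and 7.52 in controls, 7.82, 7.89 and 7.82 with diquat and 7.89, 7.79 and 7.83 with paraquat. The treated arrays were all above the controls, and the rise was 1.33-fold with each compound (adjusted p = 0.00114 with diquat and 0.00166 with paraquat). Pfkfb3, which makes the activator of phosphofructokinase, read 7.28, 7.09 and 7.35 in controls, 7.66, 7.61 and 7.81 with diquat and 7.63, 7.51 and 7.53 with paraquat. The groups did not overlap the controls, with a rise of 1.37-fold with diquat (1.22 to 1.53, adjusted p = 0.00505) and 1.25-fold with paraquat (1.11 to 1.39, adjusted p = 0.0362). The paraquat call for Pfkfb3 was lost without control replicate 1 (adjusted p = 0.0925) or 2 (0.12), without diquat replicate 1 (0.0617), without paraquat replicate 1 (0.12), 2 (0.0884) or 3 (0.104), after centring of the arrays (0.0599) and with the paraquat and control arrays fitted alone (0.0554).

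The related enzymes did not pass the threshold in the fit of all 9 arrays. Hk1, the housekeeping hexokinase, differed by -0.01 and -0.02 on the log2 scale, with a 95% interval of -0.15 to 0.12 for both compounds, and Pfkfb4 by -0.04 and -0.09. Of the phosphofructokinase subunit genes, Pfkp differed in the same direction as Hk2 and Pfkfb3. Its differences were 0.17 with diquat (95% interval 0.04 to 0.30, adjusted p = 0.119) and 0.13 with paraquat (0.00 to 0.26, adjusted p = 0.348). The liver subunit gene Pfkl differed by -0.05 and -0.21 (adjusted p = 0.713 and 0.142). Pfkl read 8.96, 8.73 and 8.67 with paraquat against 8.99, 9.05 and 8.94 in controls, and without paraquat replicate 1 its difference was -0.29 and passed (adjusted p = 0.00807).

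From aldolase to lactate, 0 of 8 members passed with diquat or with paraquat. Over all genes 7.02% were called with diquat and 4.57% with paraquat, so this count does not set the 8 genes apart. Their log2 differences ran from -0.05 to 0.10 with diquat and from -0.21 to 0.10 with paraquat. Ldha, which encodes the lactate dehydrogenase subunit raised in hypoxia, read 8.36, 8.31 and 8.31 in controls, 8.45, 8.36 and 8.38 with diquat and 8.35, 8.39 and 8.35 with paraquat. Its arrays overlapped between groups, and its differences were 0.07 (95% interval -0.01 to 0.15) and 0.04 (-0.05 to 0.12). Pgk1, phosphoglycerate kinase, differed by 0.01 (-0.07 to 0.09) and -0.01 (-0.09 to 0.07). Pkm, pyruvate kinase, differed by -0.02 and -0.05, and the triose phosphate isomerase gene Tpi1 by -0.05 with each compound.

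Gapdh differed by 0.04 and 0.10, and its treated arrays were all above its controls. Its transcripts resemble many pseudogene copies, and its other features gave 0.05 and 0.10 in one case and 0.19 and 0.04 in the other, so its value is uncertain. Aldoc, the brain-type aldolase, read 8.04, 8.02 and 8.06 in controls and 8.0, 7.68 and 7.81 with paraquat, a difference of -0.21 ± 0.07 (SE, adjusted p = 0.166) that reached -0.30 and passed without paraquat replicate 1 (adjusted p = 0.0196). Pgam1, phosphoglycerate mutase, differed by 0.10 and -0.11, and its second feature by -0.03 and -0.07. Eno2, the neuronal enolase, differed by -0.03 and 0.02.

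By complete separation of the arrays, 12 of the 28 members had all 3 diquat arrays above all 3 controls, where 10.1% of all genes did, and 0 had all 3 below, where 11.2% did. With paraquat 8 members were entirely above, where 9.05% of all genes were, and 3 entirely below (P4ha1, Aldoc and Pfkfb4), where 10.4% were. The mean of all 28 members, taken as the log2 difference from the control mean, was 0.16, 0.15 and 0.15 in the diquat arrays and 0.13, 0.04 and 0.03 in the paraquat arrays, against 0.03, -0.01 and -0.02 in the controls. Over the 22 members that passed with neither compound, these means were 0.07, 0.06 and 0.06 with diquat and 0.04, -0.05 and -0.06 with paraquat. Paraquat replicate 1 thus lay closer to the diquat arrays than the other 2 paraquat arrays did.

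The compounds were then compared directly, at doses that differ (18 µM diquat and 126 µM paraquat) and at the same time of 9 h. In limma's fit 0 of the 28 members passed, as did 0 of all 22180 genes (0 to 4 genes over the 18 alternative settings, none of them a member), with 8 of 28 members and 10.7% of all genes at an unadjusted p under 0.05. The log2 difference, paraquat minus diquat, was -0.11 for Vegfa (95% interval -0.25 to 0.03) and -0.14 for Pfkfb3 (-0.30 to 0.03). For Ndrg1 it was -0.08 (-0.18 to 0.03) on the feature used, and the second feature went the other way. Hk2 differed by -0.01 (-0.12 to 0.11). These intervals include 0 and also differences as large as -0.30, so they do not show that the compounds acted alike.

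Most members nevertheless had a lower mean with paraquat than with diquat: 24 of 28, against 44.6% of all genes, with a median difference of -0.06 against 0.01. The count lay between 20 and 26 over the 18 alternatives, and was 22 with a gene's features averaged, against 44.2% of all genes. Features not used had a higher mean with paraquat than diquat for Ndrg1 (8.53 against 8.44), Mxi1 (6.38 against 6.24) and Hif1a (6.41 against 6.36). Those of Car9 (5.2 against 5.19) and Pdk1 (4.37 against 4.36) hardly differed. That of Pgam1 was lower (9.44 against 9.48), and the other Gapdh features went in opposite directions. All 3 paraquat arrays lay below all 3 diquat arrays in 7 members (Bnip3, Egln3, P4ha1, P4ha2, Pdk1, Pfkfb4 and Pgam1), where 5.18% of all genes did, and above them in 1 (Gapdh), where 5.36% did. The largest of these differences was that of Bnip3, -0.40 ± 0.10 (SE, 95% interval -0.63 to -0.18, adjusted p = 0.339). Egln3 followed with -0.23 (-0.39 to -0.08, adjusted p = 0.368), then Pgam1 with -0.21 (-0.35 to -0.07, adjusted p = 0.368) and Pdk1 with -0.16 (-0.27 to -0.05, adjusted p = 0.368). None of these differences passed the correction.

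**Figure D3:**
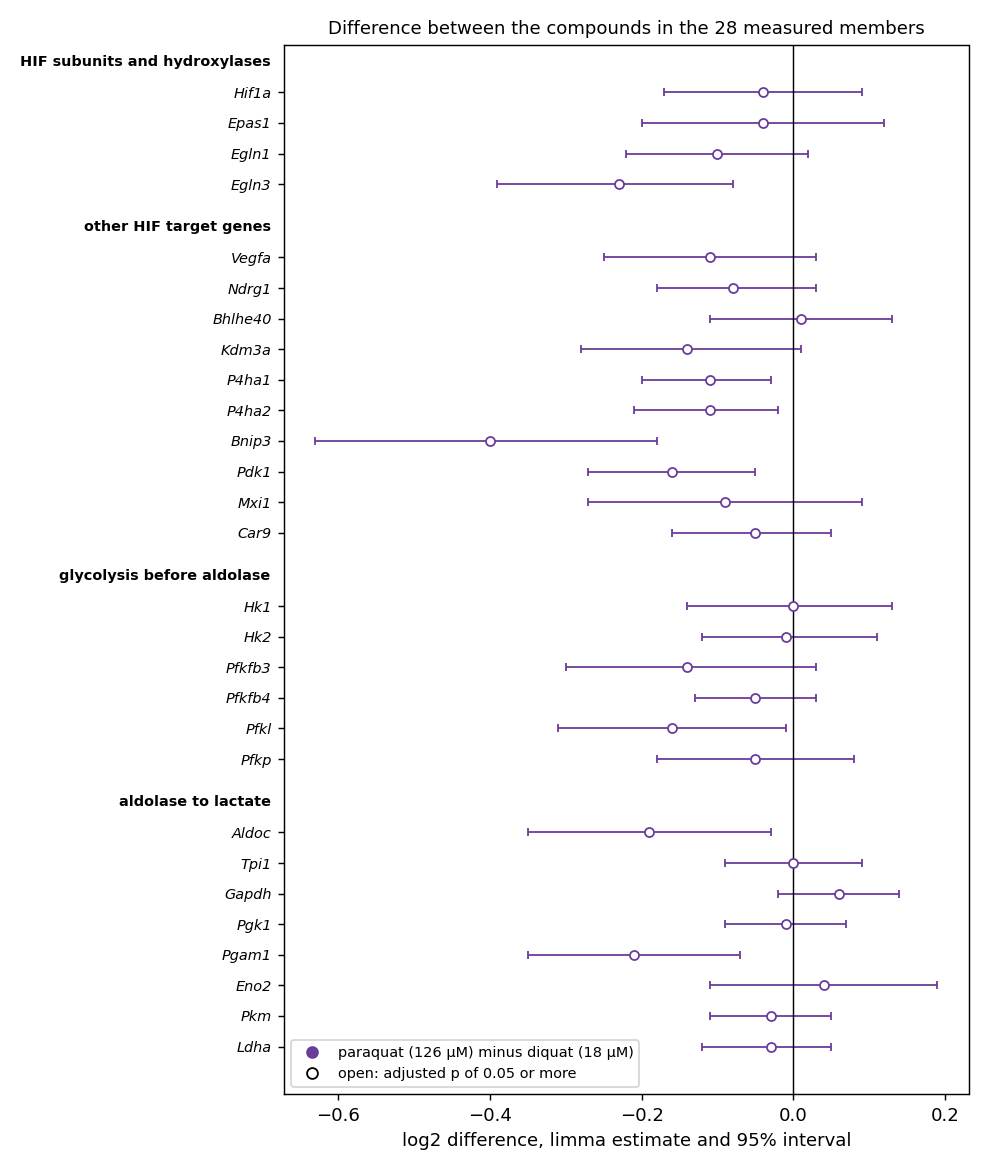
Log2 difference between paraquat at 126 µM and diquat at 18 µM (horizontal axis) for the 28 measured members, as limma's estimate and 95% interval; open points did not pass an adjusted p of 0.05. No member passed, 24 of 28 estimates lie below 0, and Bnip3 is the lowest at -0.40.

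Genes of the same pathways outside the set were counted from 4 further lists. Over all genes 4.13% were called higher and 2.89% lower with diquat, and 2.33% higher and 2.24% lower with paraquat. Of 36 other HIF pathway and target genes, 11 rose and 3 fell with diquat, and 8 rose and 3 fell with paraquat, with median changes of 0.08 and 0.02. With single arrays left out, the diquat counts ranged from 8 to 11 rises and from 2 to 4 falls. The paraquat counts ranged from 4 to 9 rises and from 1 to 3 falls. With paraquat, 4 rose without control replicate 2 or 3 or paraquat replicate 2, and 5 without control replicate 1 or paraquat replicate 1 or 3. The paraquat count of falls was 1 without control replicate 1 or 2 or paraquat replicate 1 or 3. The glucose transporter gene Slc2a1 read 10.85, 10.77 and 10.70 in controls, 11.15, 11.11 and 11.15 with diquat and 11.16, 11.19 and 11.14 with paraquat. Its treated arrays were separate from the controls, by 0.36 ± 0.04 with diquat and 0.39 ± 0.04 with paraquat (SE, adjusted p = 0.000747 and 0.00066). Hilpda, which encodes a lipid droplet protein induced by hypoxia, rose by 0.67 and 0.64, and Igfbp1, a liver-secreted binder of insulin-like growth factors, by 0.65 and 0.48. Stc2, a secreted stanniocalcin, rose by 0.64 and 0.67. Hif3a, whose products include inhibitors of HIF, fell by 0.51 with diquat and by 0.50 with paraquat. The other falls, named after their values were seen, were those of the endothelin gene Edn1 (-0.23 and -0.26) and of P4hb, the shared subunit of the collagen prolyl hydroxylases (-0.18 and -0.15). Ddit4, an inhibitor of the growth kinase mTOR and a target of both HIF and ATF4, differed by 0.03 and 0.01 and did not pass.

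**Figure D4:**
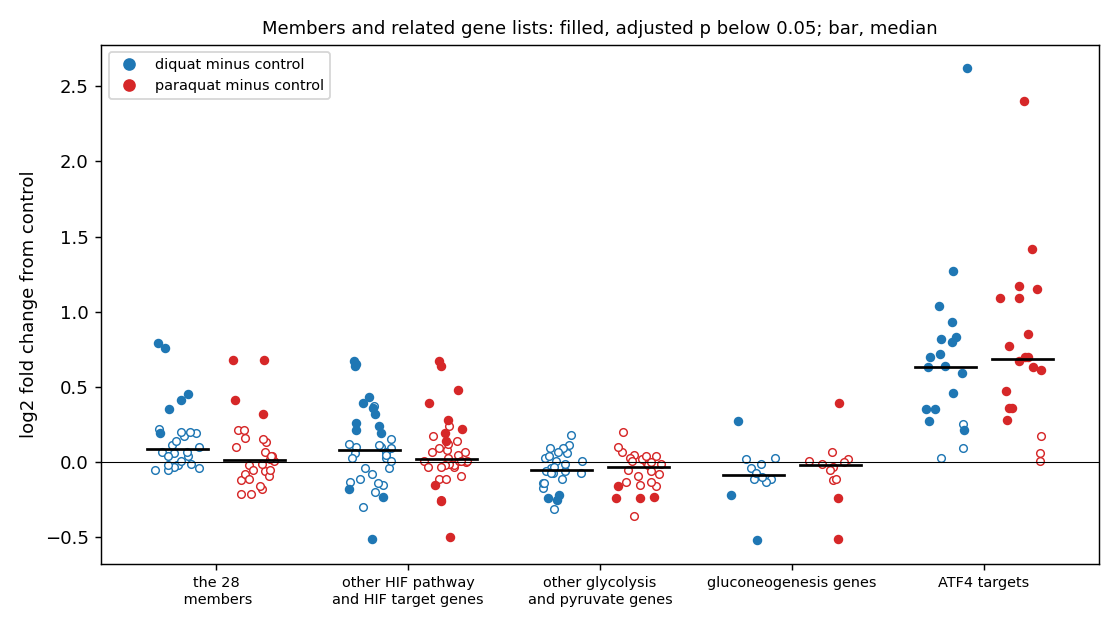
Log2 fold change from control (vertical axis) for each gene of the 28 members and of 4 related lists, with diquat and with paraquat; filled points passed an adjusted p of 0.05 and bars are medians. In the ATF4 list 17 of 20 genes passed upward with each compound, while 0 of 26 other glycolysis and pyruvate genes did. Over all genes 4.13% passed upward with diquat and 2.33% with paraquat.

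Of 26 other glycolysis and pyruvate genes, 0 rose with either compound, 3 fell with diquat and 4 with paraquat. The fallers were Eno3 (-0.22 and -0.16), Bpgm (-0.25 and -0.24), the pyruvate dehydrogenase kinase gene Pdk3 (-0.24 and -0.23) and, with paraquat, Ldhd (-0.24). With single arrays left out the count of falls ranged from 1 to 3 for diquat, with 1 without control replicate 2. For paraquat it ranged from 0 to 4, with 0 without control replicate 1 or 2 or paraquat replicate 2 or 3 and 2 without control replicate 3 or paraquat replicate 1. Of 12 gluconeogenesis genes, 1 rose and 2 fell with each compound. Pck2, the mitochondrial phosphoenolpyruvate carboxykinase, rose by 0.27 and 0.39, the glucose-6-phosphatase gene G6pc fell by 0.52 and 0.51, and the glucose-6-phosphate transporter gene Slc37a4 fell by 0.22 and 0.24. G6pc lay low in the range, at a mean of 5.85 (percentile 36.7 of all genes). The count of falls was 1 without control replicate 1 or 2 with either compound, without diquat replicate 2 or 3 for diquat and without paraquat replicate 2 or 3 for paraquat.

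ATF4 directs transcription in the integrated stress response. Genes of an ATF4 target list, which also holds Atf4 itself, were counted beside the members because ATF4 has been reported to act on Vegfa as well. Of 20 measured, 17 rose with each compound and 0 fell, with median changes of 0.64 with diquat and 0.68 with paraquat. Slc7a11, the cystine importer, rose by 2.62 and 2.40 on the log2 scale, Adm2 by 1.27 and 1.42, Chac1 by 1.04 and 1.17 and Atf3 by 0.93 and 1.15. In the direct comparison 15 of these 20 genes had a higher mean with paraquat, against 53.2% of all genes and 3 of the 28 members. The count was 15 of the 36 other HIF genes, 15 of the 26 other glycolysis and pyruvate genes and 8 of the 12 gluconeogenesis genes. The other HIF genes thus leaned the same way as the members, but less. Of these 36, 21 had a lower mean with paraquat, with a median difference of -0.02 against 0.01 over all genes. All 3 paraquat arrays lay below all 3 diquat arrays in 4 of them (11.1%), where 5.18% of all genes did, and above in 2 (5.56%), where 5.36% did. The remaining lists did not show the low count, and 0 genes passed the test in any list. Stc2 and Ddit4 stand in both the ATF4 and the HIF list. The part of ATF4 in the changes of the members was not tested.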

How the data were processed

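Total RNA from TAMH cells was hybridized to 9 arrays, 3 per group, with groups and replicate numbers from the sample titles. In the label descriptions, by contrast, all 3 arrays of each herbicide carry replicate number 1, so the replicate block and the same-number correlations rest on the titles alone. Affymetrix Expression Console 1.1 and RMA are named per the submitters' processing notes, and the values the authors deposited are on a log2 scale. The RMA settings were not given in the sources used here, nor was a genome build. Signal over background could not be judged without scanner files, and 3 arrays a group limit precision.

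Of 34472 features, 23521 carried 1 gene symbol. A gene with several features was represented by its brightest feature on average, giving 22180 genes. A model of group means over all 9 arrays (lmFit, then eBayes, in limma 3.58.1 under R 4.3.3) was fitted to these values, and p-values were adjusted by Benjamini and Hochberg over all genes. Intervals are 95% intervals and ± marks standard errors. The fit was tested on simulated data. Every measured member is given, with values in every array for those that passed and for chosen regulators and enzymes. From other lists the 4 passing genes with the largest change are named, with Slc2a1 and Ddit4. The members and lists were chosen with earlier results of these data known. Promoters came from RefSeq sequences of GRCm38.p6, scanned on both strands. Alternatives were a replicate block, a trend prior, centring, quantile normalization, omission of dim genes, fits of single pairs of groups, feature means, weighted arrays, omission of each array and a minimum fold of 1.2 (treat).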

Additional observations from a re-analysis of the deposited data

Results flagged for a closer look

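For 4 members every diquat array lay above the control mean and every paraquat array below it. The direct test of these differences in limma passed for none of them. Bnip3 differed by -0.40 on the log2 scale between paraquat and diquat (adjusted p = 0.339), with diquat arrays at 0.16 to 0.33 and paraquat arrays at -0.45 to -0.02 from the control mean. Egln3 differed by -0.23 (adjusted p = 0.368), P4ha1 by -0.11 (adjusted p = 0.399) and Pgam1 by -0.21 (adjusted p = 0.368), where the lowest diquat array lay at 0.00 from the control mean after rounding. A second feature of Pgam1 did not show this pattern, since its mean was lower than the control mean with both compounds. Groups of 3 arrays are too small for a search for single outlying samples.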

How the results depend on the processing

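Each count of members past the threshold was recomputed under 18 alternatives, 9 of which left out 1 array. The counts stayed within 1.5 times the main values of 6 with diquat, 4 with paraquat and 0 between the compounds, except when tested against a fold of 1.2, where 2 members passed with diquat and 2 with paraquat (Vegfa and Ndrg1 in both). With single arrays left out they ranged from 5 to 6 and from 3 to 5, and stayed at 0. With the replicate number as a block, 6, 4 and 0 members passed. The numbers were not treated as pairs: deviations of same-numbered arrays from their group means correlated between -0.19 and 0.20, those of other pairs between -0.33 and 0.28, and in 8 of 18 checks an array correlated best with its own number. Of 1512 recomputed member differences, 1485 kept their side of the threshold, 20 lost a call, 7 gained one and 0 called values turned direction. Among those past the threshold in neither setting, 47 near 0 changed sign. The count of members lower with paraquat than diquat was 20 after quantile normalization and 26 after centring, where 64.1% of all genes were lower. Counting HIF cores up to 50 bases after the start left 23 of 25 members with a core, against 46.7% of all genes. Counts over all genes moved more: 1558 with diquat became 959 with 2 groups fitted alone, 117 against a fold of 1.2, and 802 to 1908 with 1 array left out, and 1014 with paraquat became 1623 with array weights, 95 against that fold, and 574 to 1197 with 1 array left out. The cause was not tested. Each compound was given at 1 dose, and 3 arrays a group limit what small differences can pass.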
